A study of Homo sapiens with 4 samples.

Results

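The comparison of RNA from an endoplasmic reticulum (ER) fraction with total RNA in HT1080 cells, a human fibrosarcoma line, under 21% oxygen is described here across 19460 of the 33297 probe sets on the array, those annotated to 1 gene. The cells had grown for 36 h at 21% oxygen in medium with little serum, and were compared in the study with cells kept at 1% oxygen for the same time. All cells for fractionation had been exposed to cycloheximide, which freezes ribosomes on their mRNAs, and the ER fraction came from a commercial isolation kit. Each of the 4 arrays, 1 per fraction and oxygen level, was loaded with RNA pooled from 5 experiments. The comparison at 21% oxygen therefore rests on 2 arrays, with no replicate, no error between experiments and no test. For each probe set the median of its array was subtracted from the log2 value, and the total RNA value was then subtracted from the ER-RNA value. A positive difference means that a transcript lay higher relative to the array median in ER-RNA than in total RNA. It does not mean a higher rank, nor that more molecules of it were in the ER. Less RNA per cell and fewer cells behind a fraction cannot be told apart in such values. Of the mesenchymal markers, 9 of 9, among them VIM and FN1, lay above the median of at least 1 array of the pair. So did 12024 of all 18417 genes, but 0 of 5 measured epithelial markers and 0 of 4 measured blood markers. These counts match the cell line's label, although passing this filter does not by itself show expression.

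mRNAs that encode secreted proteins and membrane proteins are brought to the ER while they are being translated. The signal recognition particle binds the signal peptide as it leaves the ribosome, docks at its receptor on the ER, and hands the ribosome to the Sec61 channel. In the ER, signal peptidase removes the signal peptide, oligosaccharyltransferase adds sugars, and chaperones and protein disulfide isomerases fold the product. mRNAs of cytosolic, nuclear and most mitochondrial proteins are mainly translated on ribosomes free in the cytosol, although ribosomes on the ER also translate many of them. An ER fraction is therefore usually recognised by a high content of mRNAs for secreted and membrane proteins.

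The measured values went against that label. The 297 measured genes of the hand-written lists of secreted, surface, ER and lysosomal proteins had a median difference of -0.65, with 106 genes over 2-fold lower in ER-RNA and 7 over 2-fold higher. Over all genes, 6.85% were over 2-fold lower and 10.5% over 2-fold higher. Among the 12024 genes above the median of at least 1 array of the pair, the shares were 9.04% and 15.5%. The 230 genes of cytosolic proteins had a median of 1.08 (124 higher, 8 lower), and the 167 genes of mitochondrial proteins a median of 1.37 (117 higher, 0 lower). The 213 genes of nuclear proteins lay between, at 0.35 (45 higher, 9 lower). The order of secretory, nuclear, cytosolic and mitochondrial medians was the same under quantile normalization (-0.92, 0.06, 0.39 and 1.02) and under a loess fit within the pair (-0.95, 0.01, 0.28 and 0.95). At 1% oxygen, measured on the other pair of arrays, the medians were -0.60, 0.14, 1.05 and 1.2. In what follows, "high" and "low" refer to this difference between the labelled fractions, and nothing is assumed about what the ER-RNA array held. The study describes a check of the kit's ER fraction with marker proteins of the ER and the cytosol, and calls the fraction pure. That check is not an RNA measurement. The study also reports PCR of selected mRNAs in the ER fraction, and in situ hybridization beside the ER protein calnexin. Both set hypoxia against control. None of these assays is analysed here.

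**Figure D1:**
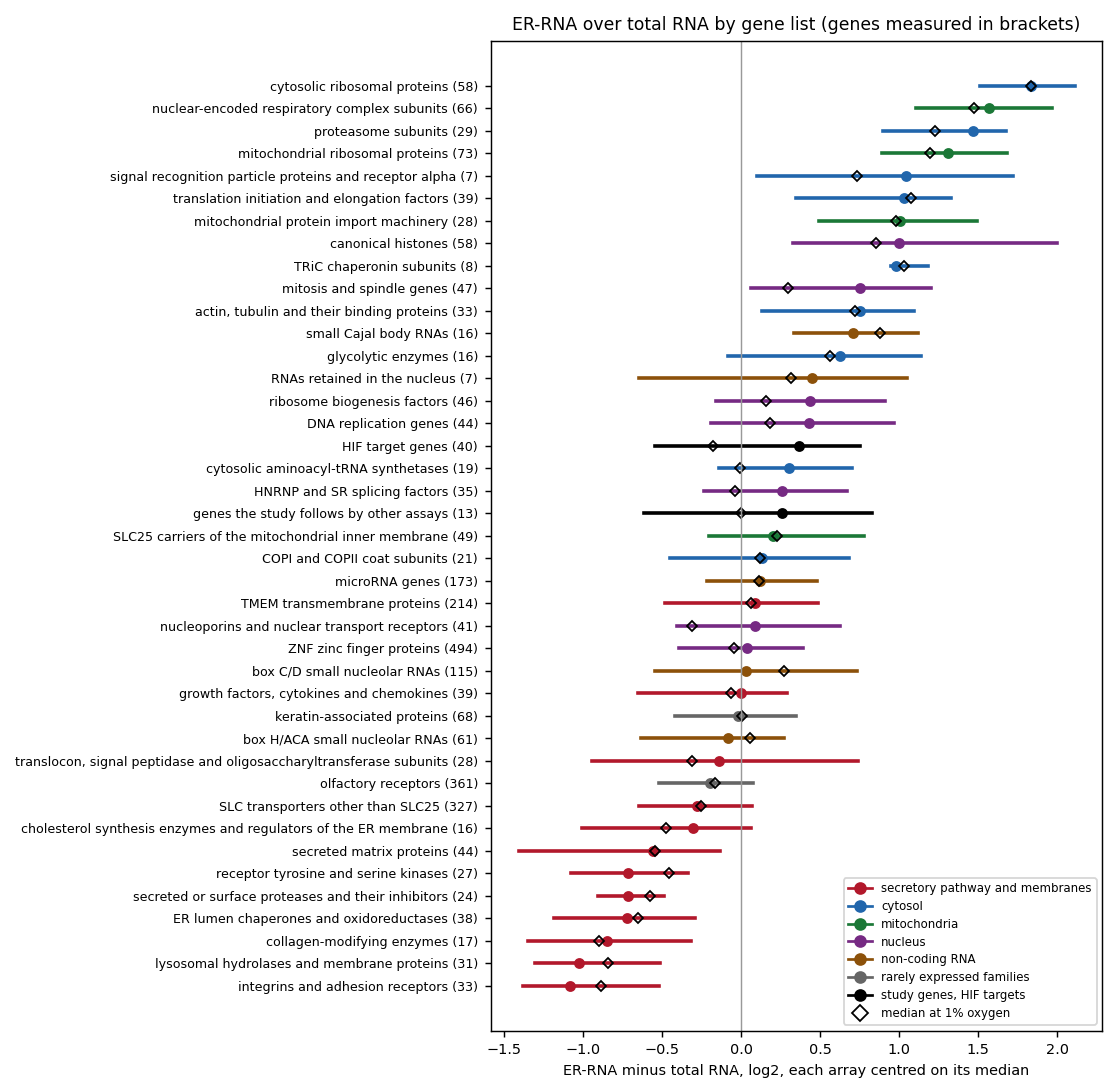
Median difference (ER-RNA minus total RNA at 21% oxygen, log2, each array centred on its own median) of each gene list as a filled point with a line from the lower to the upper quartile over its genes, coloured by the destination of the encoded proteins, with the median at 1% oxygen as an open diamond. Ribosomal proteins (1.83) stand at the top and integrins and adhesion receptors (-1.08) at the bottom, and all red points lie at or below 0 apart from TMEM proteins (0.09).

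Across all probe sets naming 1 gene the median difference was 0.04, with quartiles at -0.39 and 0.48 and a range from -4.15 to 4.63. Of these, 2089 (10.7%) were over 2-fold higher in ER-RNA and 1357 (6.97%) over 2-fold lower. This split depends on the scaling, since it was 1531 to 1604 after quantile normalization, 1372 to 1711 after loess, and 117 to 11200 when the deposited values were not centred. The ER-RNA array had a lower median (6.25) than the total RNA array (7.41), so that the median without centring was -1.12. The direction of genes near 0 is therefore relative to the scaling. On a gene level, with 1 probe set per gene, the comparison covered 18417 genes, of which 12024 lay above the median of at least 1 array of the pair. In 343 genes with a second such probe set, the differences of the pair were a median of 0.23 apart, and 11.4% of these genes had a gap over 1 on the log2 scale.

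Ribosomal proteins had the highest median of the 44 lists and classes of gene symbols. Of 79 cytosolic ribosomal protein genes, 58 had a probe set naming only them, and 55 of these were over 2-fold higher in ER-RNA, 0 lower, with a median of 1.83. The 3 others were also above 0: RPL32 at 0.40, RPL23 at 0.57 and RPS23 at 0.73. Even without centring, 55 of the 58 had a higher log2 value on the ER-RNA array than on the total RNA array. The highest was RPL17, a protein of the large subunit, with a log2 value of 8.14 for total RNA and 9.69 for ER-RNA, a difference of 2.70 after centring or 6.51-fold. RPS7, of the small subunit, went from 9.48 to 11.02 (2.69), and RPS29 from 7.24 to 8.77 (2.69). RPS16 followed at 2.67 and RPL11, which also binds the p53 regulator MDM2, at 2.44. The most strongly expressed members were less far apart, as for RPS3 at 13.48 and 13.72, a difference of 1.4. Ribosomal protein genes have many processed pseudogenes of near-identical sequence, so each of these probe sets may also have read other copies. After quantile normalization the list's median was 0.89 and after loess 0.76, still above 0 but lower than with centring alone.

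Vertebrate ribosomal protein mRNAs begin with a pyrimidine tract, which links their translation to growth signals. Ribosomal proteins had the highest list median, and the matrix genes NID1 and THBS2 were among the 10 lowest protein-coding genes. The 15 bases on each side of the annotated start are shown for genes of both lists (RefSeq, GRCh38.p14, gene strand). The letters CTTTC are in capitals where present. RPL17 (chr18:49492451-49492480, minus strand), RPS16 (chr19:39435935-39435964, minus), RPS7 (chr2:3575245-3575274, plus), NID1 (chr1:236065076-236065105, minus) and THBS2 (chr6:169253832-169253861, minus) read as follows.
RPL17: cctCTTTCcctaagcagcctgaggtgagtg
RPS16: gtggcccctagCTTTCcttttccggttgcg
RPS7: gtttccgccctcctcctcgcgctgtttccg
NID1: ggtttgcgggaccgcagttcgggaacatgt
THBS2: gcccgggagccgctcggccacgtccaccgg
The letters were in 23 of 49 ribosomal protein genes with a sequence (46.9%; 2.04% on the other strand), against 4.18% of all 27305 promoters of the table (3.17% on the other strand). They were in 18.9% of histone genes, 5.36% of respiratory complex genes, 4.17% of proteasome genes and 6.06% of secreted matrix genes. Outside the ribosomal proteins, the 547 genes with the letters had a median difference of 0.07 and the 13641 without them 0.04. RPS7 and RPS29 were among the highest without holding these letters in this window. In RPL17 the letters lay wholly before the annotated start, and in RPS16 all but the last letter did. The marked letters are therefore no part of the annotated RPL17 mRNA. In RPS16 the last marked letter is the first base of the annotated mRNA, and further pyrimidines follow it. The counts did not require the letters to follow the start.

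**Figure D2:**
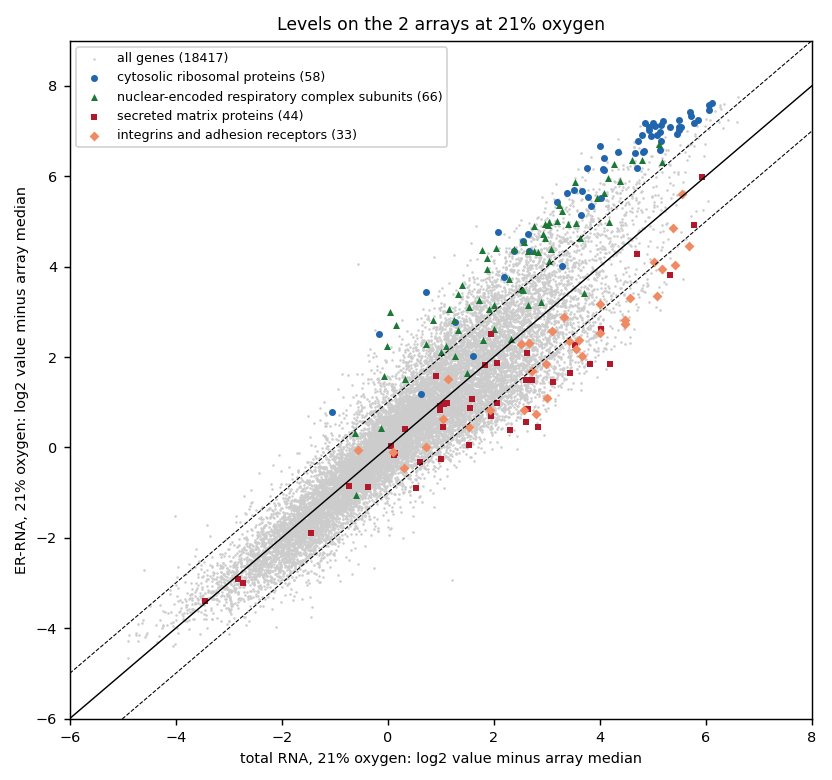
Log2 values of all 18417 genes in total RNA (horizontal) and ER-RNA (vertical) at 21% oxygen, each minus its array's median, with 4 lists marked; the solid line is equality and the dashed lines are 2-fold either way. The ribosomal protein genes and 64 of the 66 respiratory complex genes lie above the solid line, with UQCRB (-0.44) and SDHA (-0.27) below it, and most matrix and adhesion receptor genes lie below it.

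Translation factors followed the ribosome, with 22 of 39 over 2-fold higher, 1 lower and a median of 1.03 (0.27 after quantile normalization, 0.24 after loess). Within initiation factor eIF3 the members spread widely, from EIF3E at 2.11 (9.90 in total RNA, 10.85 in ER-RNA) and EIF3K at 1.70 to EIF3A, its largest subunit, at -0.80. EIF4G1, the scaffold of the cap-binding complex, was the lowest at -1.28, while EIF4A2, a helicase that EIF4G1 binds, stood at 1.85. Cytosolic aminoacyl-tRNA synthetases, which charge tRNAs, differed from the ribosome: 0 of 19 were past 2-fold either way, with a median of 0.30 and a range from AARS1 at -0.97 to SARS1 at 0.85. Their median turned to -0.28 after quantile normalization and -0.39 after loess. Proteasome subunits were high in 21 of 29 cases with 0 low and a median of 1.47. The 20S core subunits PSMB3 (10.21 to 11.20, difference 2.14), PSMA4 (1.99) and PSMA2 (1.92) led, and subunits of the regulatory lid ran from PSMD11 at -0.55 and PSMD3 at -0.05 to PSMD14 at 1.4 and PSMD8 at 1.5. The 8 subunits of the TRiC chaperonin, which folds actin and tubulin, were tightly grouped between CCT5 at 0.60 and CCT6A at 1.27, with 3 over 2-fold higher; CCT5 was below 0 under quantile normalization and loess.

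mRNAs of mitochondrial proteins, which are imported after translation, were mostly high. Nuclear-encoded subunits of the respiratory complexes had a median of 1.57, with 52 of 66 over 2-fold higher and 0 lower. NDUFB3, an accessory subunit of complex I, went from 7.44 in total RNA to 9.25 in ER-RNA, a difference of 2.96 or 7.77-fold. COX7C (9.19 to 10.63, difference 2.60) and COX7B (7.56 to 8.95, difference 2.55) of cytochrome oxidase followed. The low end of the list held SDHA, the flavoprotein of succinate dehydrogenase, at -0.27 and NDUFS1, the largest complex I subunit, at 0.08. UQCRB, at -0.44, lay under the median of both arrays. Mitochondrial ribosomal proteins showed 50 of 73 higher and 0 lower, from MRPS25 at 0.13 to MRPL11 at 2.59 (8.96 to 10.40), with a median of 1.31. In the protein import machinery 15 of 28 were higher and 0 lower, with a median of 1.01. TIMM10, a small carrier of the intermembrane space (2.11), and the channel protein TIMM17A (2.09) were at its top, and the processing peptidase PMPCA (-0.62) at its bottom. Receptors of the outer membrane differed, with TOMM20 at -0.05, TOMM70 at 0.05 and TOMM22 at 2.00. The SLC25 carriers, membrane proteins that move metabolites across the inner membrane, stood much nearer to all genes at a median of 0.20, with 6 of 49 higher and 0 lower, led by the phosphate carrier SLC25A3 (1.52) and the ADP/ATP carrier SLC25A5 (1.46). The 1.57 and 1.31 of the first 2 lists became 1.12 and 1.04 after quantile normalization and 1.01 and 0.96 after loess.

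Secreted matrix proteins were low or near 0. Of 44 genes, 18 were over 2-fold lower in ER-RNA and 0 higher, with a median of -0.55. NID1, which links laminin and collagen IV in basement membranes, fell from 10.24 in total RNA to 6.71 in ER-RNA, a difference of -2.37 after centring. THBS2, a thrombospondin, had 11.61 and 8.09 (-2.36). The laminin chains LAMA4 (-2.05) and LAMC1 (-1.96) and fibrillin FBN1 (-1.91) were close behind. FN1, with 13.19 for total RNA and 11.17 for ER-RNA, was at -0.86. SPARC, at 13.34 and 12.25, was at 0.06 with centring and below 0 under quantile normalization and loess. The highest were COL18A1 at 0.66 and TGFBI at 0.56. Collagen-modifying enzymes of the ER and the extracellular space had a median of -0.85, with 6 of 17 lower and 0 higher. Among them the lysyl hydroxylases PLOD3 (-1.83) and PLOD1 (-1.71) and the glycosyltransferase COLGALT1 (-1.75) were lowest. Secreted and surface proteases and their inhibitors had a median of -0.72, with 5 of 24 lower and 0 higher, among them TIMP2 (-1.67), MMP2 (-1.30) and MMP14 (-1.14). TIMP1, another inhibitor of the same proteases, was at 0.10, with a sign that turned under both other scalings.

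Growth factors, cytokines and chemokines were split. Of 39 genes, 7 were over 2-fold lower and 1 higher, with a median just under 0. CSF1 (11.38 in total RNA, 8.31 in ER-RNA, difference -1.91), TGFB1 (-1.90) and WNT5A (-1.81) were low. IL6, the 1 gene over 2-fold higher, had 6.86, under the median of the total RNA array, and 7.0 (1.29). The chemokines CXCL8 (0.98) and CCL2 (0.85) followed. VEGFA, the angiogenic factor that hypoxia induces, was at -0.51, and its relative VEGFB at 0.72.

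Integrins and adhesion receptors had the lowest median of the 44 lists and classes. Of 33 genes, 19 were over 2-fold lower and 0 higher, with a median of -1.08, which quantile normalization (-1.4) and loess (-1.47) moved further down. NCAM1, a neural adhesion molecule, had 10.21 for total RNA and 6.99 for ER-RNA (-2.07). The neuropilin NRP2 (-1.91), the laminin receptor chain ITGA6 (-1.74), the fibronectin receptor chain ITGA5 (-1.74) and the vitronectin receptor chain ITGAV (-1.63) were all low. CD44, the hyaluronan receptor, was at 0.04 with centring, but at -0.96 under quantile normalization and -1.05 under loess. Receptor tyrosine and serine kinases had 8 of 27 lower and 0 higher (median -0.71), with EPHA2 at -1.92, IGF1R at -1.91, EGFR at -1.58, AXL at -1.36 and MET at -1.32. Among 327 transporters of the SLC families other than SLC25, 42 were lower and 1 higher (median -0.28). SLC8A1, a sodium-calcium exchanger, stood at -2.30, and the amino acid transporter SLC7A1 at -2.07. The ER-RNA value of SLC8A1, 4.24, was under the lower quartile of its array (4.66). The exception, SLC30A9 at 1.21, is described as a zinc transporter of mitochondria. The 214 TMEM genes, grouped by name and not by organelle, had 21 higher and 20 lower, with a median of 0.09. At their ends were TMEM131 (-2.21) and TMEM243 (2.39), and TMEM126A (1.90) and TMEM126B (2.25) of complex I assembly were high. Of 31 lysosomal genes, 16 were lower and 1 higher, with a median of -1.03. The peptidase TPP1 (11.53 to 7.99, difference -2.38), the sulfatase ARSB (-2.00) and the cholesterol transporter NPC1 (-1.72) were low, whereas NPC2, the soluble cholesterol carrier that works with NPC1, was at 1.24 (11.80 and 11.88).

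Genes of the ER itself divided by component. ER lumen chaperones and folding enzymes had 17 of 38 lower and 0 higher, with a median of -0.72. SEL1L, the adaptor of the HRD1 ubiquitin ligase in ER-associated degradation, was the lowest protein-coding gene of the whole comparison, with 10.37 for total RNA and 6.52 for ER-RNA, a difference of -2.69 or 6.45-fold. The glucosidase GANAB (-2.13), the glycoprotein folding sensor UGGT1 (-1.90) and the lectin OS9 (-1.87) were next, while the mannosidase-like EDEM1 and EDEM2, which also act in degradation of misfolded glycoproteins, were at -0.39 and -0.36. HSPA5, the major ER chaperone (BiP), was at -1.01, P4HB, the protein disulfide isomerase often used as an ER marker, at -1.12, CANX at -0.77, HSP90B1 at -0.68 and CALR at -0.51. The highest were PPIB at 0.51, which was below 0 under quantile normalization and loess, and DNAJB9 at 0.48.

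The channel and enzyme complexes at the ER membrane held both ends. Of 28 translocon, signal peptidase and oligosaccharyltransferase genes, 5 were over 2-fold higher and 6 lower (median -0.14). SEC61B, the beta subunit of the Sec61 channel, went from 10.70 to 11.58 (2.04), whereas SEC61A1, its pore-forming alpha subunit, went from 12.09 to 9.91 (-1.03). In oligosaccharyltransferase, TMEM258 (1.95), OSTC (1.25) and DAD1 (1.19) were high, and the catalytic STT3A (-1.32) and the large subunit RPN1 (-1.24) were low. The translocation-associated TRAM2 was lowest at -1.94. Of the 5 high genes, SPCS1 of signal peptidase was the other, at 1.04. The signal recognition particle, which works in the cytosol, showed a related spread: SRP14 (10.83 to 11.76, difference 2.08), SRP9 (1.94), SRP19 (1.5) and SRP72 (1.04) were over 2-fold higher, SRP68 was at -0.57, and the receptor subunit SRPRA was at -1.79 (11.95 to 9.0). COPI and COPII coat subunits had a median of 0.13 (-0.23 under quantile normalization, -0.34 under loess), with 2 of 21 higher and 2 lower, from SEC16A at -1.36 to the small GTPase ARF4 at 1.67. Enzymes and regulators of cholesterol synthesis at the ER membrane had 4 of 16 lower and 0 higher (median -0.31). Regulators ranged from SREBF2 at -1.31 to INSIG2 at 0.46, and enzymes from DHCR7 at -1.10 to EBP at 0.64.

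**Figure D3:**
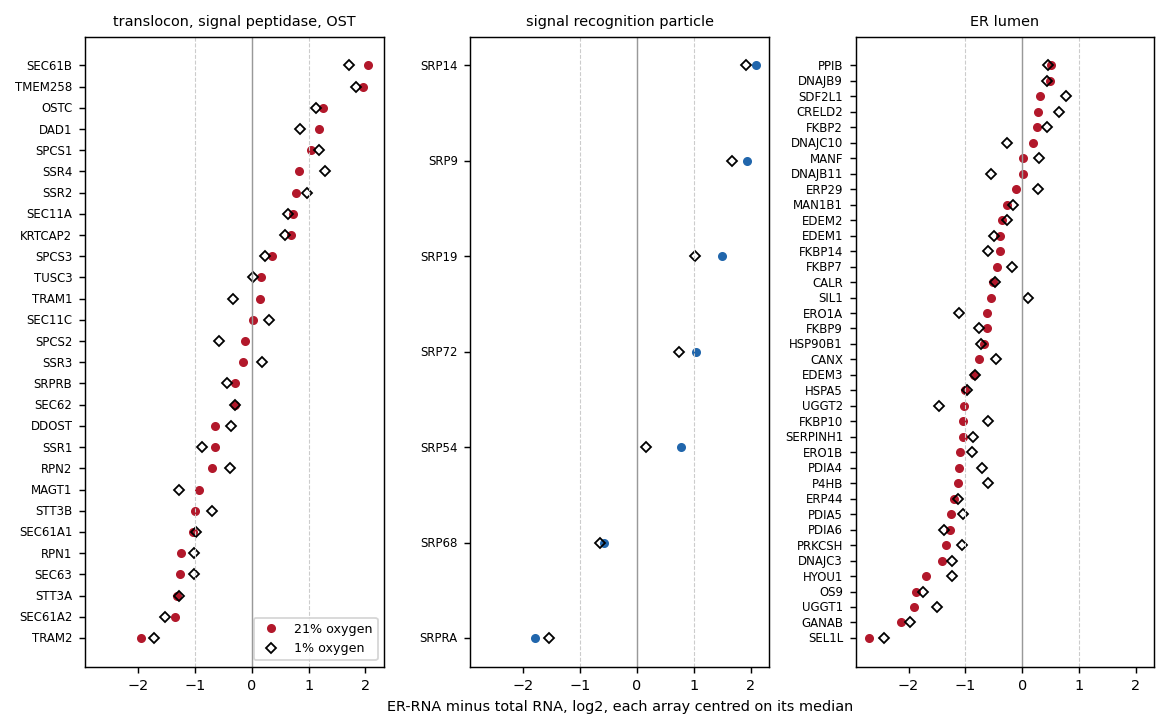
Difference between ER-RNA and total RNA (log2, centred) of each gene of the translocon, signal peptidase and oligosaccharyltransferase (OST), of the signal recognition particle and its receptor alpha, and of the ER lumen, at 21% oxygen (filled) and 1% oxygen (open diamonds), with dashed lines at 2-fold. In the left and middle panels the genes run from about -1.9 to about 2, with SEC61B and SRP14 at the top, while no ER lumen gene exceeds 0.51 at 21% oxygen.

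Cytoskeletal and metabolic genes varied more by member. Actin, tubulin and their binding proteins had 11 of 33 higher and 4 lower, with a median of 0.75 that turned to -0.09 after quantile normalization and -0.19 after loess. MYL6 (2.30), a myosin light chain, and TMSB10 (2.10), a thymosin that binds actin monomers, were at the top, while the light chain MYL12A was at 0.13. TLN1 (-1.65), which couples integrins to actin, MYH9 (-1.54), a myosin heavy chain, VCL (-1.35) and MSN (-1.22) were the 4 low ones. ACTB, at 13.84 for total RNA and 13.51 for ER-RNA, was at 0.83, and TUBB at 0.76, both below 0 under quantile normalization and loess. Glycolytic enzymes had 6 of 16 higher and 0 lower, with a median of 0.63 that turned to -0.07 after quantile normalization and -0.21 after loess. ALDOA (1.47), TPI1 (1.46) and LDHB (1.37) were high, while the hexokinases HK1 and HK2, which bind mitochondria, were at -0.73 and -0.52. GAPDH had 14.01 for total RNA and 14.00 for ER-RNA, near the top of both arrays (14.42 and 14.45), and its difference of 1.14 came from the centring. Over the 50 genes above 13 in total RNA the median difference was -0.13 without centring and 1.03 with it.

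Nuclear proteins had intermediate values. Canonical histones, a class grouped by gene symbol, stood out with 29 of 58 higher and 0 lower (median 1.00). Over the 37 above the median of at least 1 array the median was 1.85, and the lowest of these was H1-10 at 0.25. Replication-dependent histone mRNAs lack a poly(A) tail, which grouping by symbol does not ensure for each member. H2BC3 (8.98 to 10.78, difference 2.96) and H3C2 (11.06 to 12.77, difference 2.86) were among the 10 highest protein-coding genes. Histone genes lie in clusters of near-identical copies, so their probe sets may share signal. Mitosis and spindle genes had 17 of 47 higher and 1 lower (median 0.75), led by CENPK (2.40), MAD2L1 (2.07) and CDK1 (2.05), with INCENP at -1.10. DNA replication genes had a median of 0.43 (9 of 44 higher, 0 lower), from the polymerase subunit POLE at -0.92 to RPA3 at 1.5, with the sliding clamp PCNA at 1.47. Ribosome biogenesis factors had a median of 0.43 (10 of 46 higher, 2 lower), from MDN1 at -1.14 to NOP10 at 2.20. Splicing factors (median 0.26, 4 of 35 higher, 2 lower) and nucleoporins and transport receptors (0.09, 5 of 41 higher, 4 lower) were nearer to all genes, and both medians were below 0 under quantile normalization and loess. The 494 ZNF genes, mostly transcription factors, had a median of 0.04, the same as all genes, with 23 higher and 27 lower.

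Non-coding RNAs did not move as 1 group. Among RNAs that stay in the nucleus or start there, MALAT1 (11.86 to 9.66, difference -1.05) and TUG1 (-0.87) were low, and MEG3 was at -0.42. RPPH1, the RNA of RNase P, was at 2.37 (10.55 to 11.76), the telomerase RNA TERC at 1.18 and RMRP at 0.92. Small Cajal body RNAs, which guide modification of spliceosomal RNAs, had 5 of 16 higher and 0 lower (median 0.71), led by SCARNA4 at 1.88. Box C/D small nucleolar RNAs had 18 of 115 higher and 14 lower (median 0.03), with SNORD58A at 2.11 and SNORD75 at -2.18. Box H/ACA RNAs had 3 of 61 higher and 4 lower (median -0.08). The 20 genes with the biotype snRNA, a group picked after its values were seen, had 13 higher and 1 lower with a median of 1.28. The U1 variant RNVU1-19 had the highest difference of all genes, 4.63, with 6.85 for total RNA and 10.32 for ER-RNA, but U1 copies are nearly identical and the probe set may read several. ROCK1P1, a partial copy of ROCK1, had the lowest at -4.15 (8.63 to 3.33), with an ER-RNA value under the lower quartile of its array. Other ends were the pseudogenes LOC100130331 (2.59), MT1P3 (2.27), HSP90AA2P (2.13) and RPL23AP32 (-1.97), the antisense RNA PINK1-AS (-1.96) and SND1-IT1 (-1.77), all of which overlap or resemble other genes. The array does not separate precursor from mature microRNAs, and 37 of 173 microRNA genes were above the median of at least 1 array. Olfactory receptors (median -0.20) and keratin-associated proteins (-0.02) are families that this cell type hardly uses. Their median total RNA values were 5.87 and 7.33, the second close to the array median of 7.41. Above the median of at least 1 array were 19 of 361 and 36 of 68. Over 2-fold higher were 1 and 0, and over 2-fold lower 18 and 0.

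The genes with the largest differences did not all belong to these lists. ARHGDIB was the highest protein-coding gene, with 8.28 for total RNA and 10.48 for ER-RNA, a difference of 3.35 or 10.2-fold. CSAG1, a cancer-testis gene, followed with 9.08 and 11.15 (3.22), and CAPZA2, an actin capping subunit, with 8.65 and 10.50 (3.0). GSKIP, which binds GSK3, was at 2.85. At the low end, after SEL1L, came ERAP1, the ER aminopeptidase that trims antigenic peptides (9.84 to 6.22, difference -2.47), and the membrane lipase ABHD2 (-2.40). The chloride channel family member TTYH3 was at -2.38, CHSY3, a chondroitin synthase of the Golgi, at -2.34, and the ion channel ASIC1 at -2.28. CHSY3 had 7.89 for total RNA and 4.39 for ER-RNA, under the lower quartile of the ER-RNA array (4.66).

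The genes that the study followed by other assays were spread across the range. RPL7A (1.75), whose probe set may read a copy of the gene, RPL19 (1.51) and GAPDH (1.14) were over 2-fold higher. HIF1A, the oxygen-regulated transcription factor subunit, was at 0.70 (12.14 in total RNA, 11.69 in ER-RNA), which was below 0 under quantile normalization and loess. P4HA1, a catalytic subunit of the collagen prolyl hydroxylases, had 9.76 and 7.99 (-0.62), HK2 9.72 and 8.05 (-0.52), and BLID 8.35 and 5.80 (-1.39). CYP19A1, aromatase, was under the median of both arrays (5.39 and 4.49). At 1% oxygen the differences were -1.24 for P4HA1, -1.51 for HK2 and -2.80 for BLID, further from 0 than at 21%. They were -0.75 for VEGFA, also further from 0, and -0.60 for P4HB and 0.35 for HIF1A, nearer to 0. The ER-RNA values of P4HA1 and HK2 were higher at 1% oxygen (9.18 and 8.93) than at 21%. Their total RNA values rose more, to 11.57 and 11.59. BLID had 9.57 in total RNA and 5.61 in ER-RNA at 1%. Of 40 genes known as targets of hypoxia-inducible factors, 7 are glycolytic and 4 collagen-modifying. At 21% oxygen 6 of the 40 (15%) were over 2-fold higher and 4 (10%) lower. These shares were near the 15.5% and 9.04% of all genes above the median of at least 1 array. The median of the targets was 0.37, which was -0.004 under quantile normalization and -0.09 under loess. HILPDA (1.70), BNIP3 (1.69) and BNIP3L (1.6) were at the top, and the glucose transporters SLC2A1 (-1.28) and SLC2A3 (-1.16) at the bottom with the stanniocalcin STC2 (-1.21).

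The length of the gene moved with the difference. Over 18389 genes with a RefSeq span, introns included, cut into 4 bins of equal size, the shortest bin had a median of 0.20 and the following bins 0.11, 0.02 and -0.18. The medians fell from bin to bin inside 3 of the 4 groups: the secretory genes went through 0.01, -0.50, -0.72 and -1.10 from the shortest to the longest bin, the cytosolic genes through 1.59, 1.12, 0.48 and 0.08, and the nuclear genes through 0.77, 0.50, 0.29 and -0.08. The mitochondrial genes had 1.49, 1.44, 1.12 and 1.21, the last from 7 genes. Within each bin the secretory median was the lowest of the 4 groups. The 200 highest protein-coding genes, all at 1.97 or more, had a median span of 8451 bases, and the 200 lowest, all at least 1.61 below 0, one of 80380.5 bases. They were taken from 11434 protein-coding genes above the median of at least 1 array. The highest 200 held 25 of 58 ribosomal proteins, 15 of 37 canonical histones and 17 of 65 respiratory complex subunits. The lowest 200 held 8 of 38 secreted matrix proteins, 7 of 32 integrins and adhesion receptors and 9 of 187 SLC transporters. Each of these counts stands against 200 of 11434 for all eligible genes. The span is that of the gene and not of the mRNA, and its part in the differences was not tested.

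**Figure D4:**
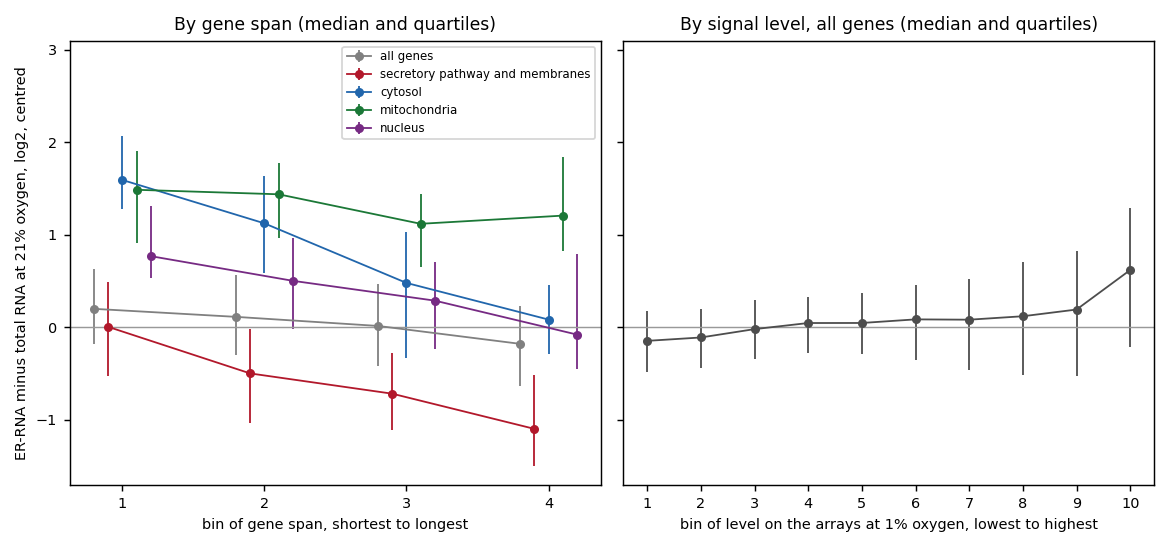
Left, median difference (ER-RNA minus total RNA at 21% oxygen, log2, centred) with quartiles as vertical lines for all genes and 4 groups of lists in 4 bins of gene span from shortest to longest; right, the same for all genes in 10 bins of their mean level on the 2 arrays at 1% oxygen. Secretory genes go from 0.01 to -1.10 and cytosolic genes from 1.59 to 0.08 with span, and the highest bin of level has a median of 0.62.

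The level of a transcript also moved with the difference. When genes were sorted into 10 bins by their mean level on the arrays at 1% oxygen, the median difference at 21% rose from -0.15 in the lowest bin to 0.19 in bin 9 and 0.62 in the highest. In the highest bin 36.0% of genes were over 2-fold higher and 10.4% lower, against 1.74% and 4.40% in the lowest. Inside the highest bin, the 117 secretory genes had a median of -0.83, the 33 nuclear genes 0.55, the 172 cytosolic genes 1.26 and the 63 mitochondrial genes 1.6. In bin 9 the order of nuclear and cytosolic genes was not kept: the medians were -1.05 for 51 secretory, 0.23 for 44 nuclear, 0.22 for 31 cytosolic and 1.15 for 37 mitochondrial genes. Quantile normalization and loess both act on this trend, and its part in the differences was not tested.

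The differences at 1% oxygen came from another pair of arrays, which shares none with the pair at 21% but is another condition and no replicate. Across genes, which are not independent, the differences of the pairs had a Pearson r of 0.907 and a Spearman correlation of 0.888, and 85.1% of genes had the same sign. Of the genes over 2-fold higher at 21% oxygen, 1399 were so at 1% too, which is 72.3% of those at 21% and 82.7% of those at 1%, where 9.19% of all genes were higher and 6.6% lower. For lower genes the overlap of 825 was 65.4% and 67.8%. The ribosomal proteins had a median of 1.83 at both oxygen levels. Respiratory complex subunits (1.57 and 1.47), secreted matrix proteins (-0.55 and -0.55) and ER lumen genes (-0.72 and -0.65) also lay close, whereas mitosis genes had 0.75 at 21% and 0.30 at 1%. The 1 gene past 2-fold in opposite directions was IMMP1L, a peptidase subunit of the mitochondrial inner membrane, at 1.29 and -1.10, with log2 values of 6.54 for total RNA and 6.68 for ER-RNA at 21% and 6.57 and 4.32 at 1%.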

How the data were processed

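Total RNA and ER-RNA of HT1080 cells were hybridised to 4 Affymetrix gene arrays, 1 per fraction and oxygen level, each carrying a pool of 5 experiments. RMA was applied by the authors, and the deposited table gives its log2 values. Per the submitters' processing notes Partek 6.4 was used. The labels and methods do not say whether both fractions went through RMA together, and the array medians differ (7.41 and 7.49 for total RNA, 6.25 and 6.34 for ER-RNA).

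Here each array was centred on its median over 33297 probe sets, and total RNA was subtracted from ER-RNA. Names came from the platform annotation. Of 19460 probe sets naming 1 gene, 19429 matched RefSeq by gene identifier. For lists, a gene was represented by its probe set of highest mean across the arrays, and all list counts and medians cover measured members. A 2-fold difference was the threshold, and at least 1 array of the pair above its 50% quantile the filter for named genes. With 1 array per group there is no test, and the number of arrays limits precision. Named were the 10 highest and lowest protein-coding genes and 5 and 5 others, list extremes, genes the study names, and cell markers; further list members were chosen after their values were seen. Members and lists were chosen with earlier results of these data known. Python 3.11.15, numpy 2.4.6, pandas 2.3.3, scipy 1.17.1 and statsmodels 0.14.6 (loess fraction 0.3) were used, tested on simulated data. Protein sequence classes were not analysed here.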

Additional observations from a re-analysis of the deposited data

Results flagged for a closer look

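For 7 lists, with cell type markers set aside, the median difference between ER-RNA and total RNA had opposite signs at 21% and 1% oxygen. With 1 pool per array the difference between the oxygen levels was not tested. The epithelial markers (-0.24 at 21%, 0.092 at 1%) and the blood markers (-0.042 and 0.37) also changed sign. Of these markers, 0 lay above the median of at least 1 array of the pair at 21%. The HIF target genes had 0.37 at 21% and -0.18 at 1%, and nucleoporins and nuclear transport receptors 0.085 and -0.31. Cytosolic aminoacyl-tRNA synthetases had 0.30 and -0.0090, and splicing factors 0.26 and -0.040. The positive medians of these 4 lists at 21% depend on the scaling: quantile normalization gave -0.0043, -0.19, -0.28 and -0.053, and loess -0.092, -0.28, -0.39 and -0.12. The other 3 were close to 0 at both levels: ZNF zinc finger proteins with 0.036 and -0.044, keratin-associated proteins with -0.019 and 0.0076, and box H/ACA small nucleolar RNAs with -0.082 and 0.058.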

How the results depend on the processing

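A median counts as moved where it left the exact binomial 95% interval of the main median over the list's genes, which covers the spread over genes and not over experiments. The probe sets past the threshold, 2089 higher and 1357 lower, became 4825 and 4155 at 1.4-fold, 217 and 54 at 4-fold, and 117 and 11200 without centring; loess gave 1372 higher. Quantile normalization moved the medians of proteases and inhibitors to -1.03, integrins and adhesion receptors to -1.40, ER lumen genes to -1.10, ribosomal proteins to 0.89, translation factors to 0.27, tRNA synthetases to -0.28, the proteasome to 0.90, respiratory complexes to 1.12, mitochondrial ribosomal proteins to 1.04 and ZNF genes to 0.12, and turned actin, tubulin and their binding proteins to -0.085, splicing factors to -0.053 and olfactory receptors to 0.023. Loess moved the same lists to -1.09 (proteases), -1.47 (integrins), -1.17 (ER lumen), 0.76 (ribosomal proteins), 0.24 (translation factors), -0.39 (tRNA synthetases), 0.78 (proteasome), 1.01 (respiratory complexes) and 0.96 (mitochondrial ribosomal proteins), lysosomal genes to -1.29, glycolytic enzymes to -0.21, TRiC to 0.48 and olfactory receptors to -0.033, and turned the cytoskeletal list to -0.19 and splicing factors to -0.12. The gap of secretory to cytosolic medians, -1.73, became -1.31 and -1.23 under these scalings. With 1 array above its 50% quantile, SLC transporters other than SLC25 had -0.40, ZNF genes 0.16, histones 1.85, olfactory receptors -0.062, box C/D RNAs 0.37, box H/ACA RNAs 0.14 and microRNA genes 0.28. With both arrays above it they had -0.40, 0.15, 1.95, 0.13 (turned), 0.48, 0.15 and 0.23. The cause of these shifts was not tested. Centring on the probe sets that name 1 gene left all 46 results in the range, as did averaging a gene's probe sets for the 44 results it applies to. The alternatives on protein sequence classes were not run. No paired analysis was possible because each group is 1 pooled array.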

Other observations

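Over all 33297 probe sets, 11.1% were over 2-fold higher in ER-RNA and 9.48% lower. Probe sets without a gene name, 12083 of the table, had a median difference of -0.002 and a minimum of -7.09. Of these, 1340 (11.1%) were higher and 1678 (13.9%) lower. The 1754 probe sets that name several genes had 255 higher and 123 lower, a larger and a smaller share than over all probe sets. Long non-coding RNAs, 632 genes, had a median of -0.01, with 28 higher (4.43%) and 25 lower (3.96%). Both shares were below the 10.5% and 6.85% of all genes.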
